A study of Rattus norvegicus with 14 samples.

Results

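The genes of sterol synthesis and of fatty acid synthesis and desaturation were examined in rat IEC-6 cells, a line derived from the crypts of the small intestine. They were 30 genes, 20 on the sterol side and 10 on the fatty acid side, of 14218 named genes on the array. Each was found by its symbol in the array's probe annotation and is represented by 1 probe set, the one with the highest mean log2 signal over all arrays. All 30 passed the filter on low signal and were tested.

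The study asked how non-steroidal anti-inflammatory drugs that slow the migration of these cells, indomethacin and NS-398, differ from one that does not, SC-560. Cells were kept for 72 h with 100 µM indomethacin (2 arrays), 100 µM NS-398 (4 arrays), 1 µM SC-560 (4 arrays) or DMSO, the vehicle control (4 arrays). Arrays were labelled 1, 2, 1b or 2b within a group. The 8 arrays with the suffix b and the 6 without it are called the 2 label sets here, since the meaning of the suffix is not given in the sources used. Both indomethacin arrays belonged to set b, so indomethacin was never measured beside the arrays without the suffix. Per the submitters' design text, cultures were pooled before hybridisation and several chips were run per biological sample. A p-value here rests on how far the arrays of all groups scatter around their fitted means, and that scatter may be technical.

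Cholesterol is built from acetyl-CoA by way of mevalonate, isoprenoids, squalene and lanosterol. Palmitate is built from the same precursor, then lengthened by elongases and given double bonds by desaturases. Transcription of both pathways is driven by the sterol regulatory element binding proteins, SREBP-2 mainly for sterols and SREBP-1 mainly for fatty acids, which stay in the endoplasmic reticulum with Scap and Insig proteins while sterols are plentiful. Enterocytes both absorb and make cholesterol. Indomethacin inhibits both cyclooxygenases, NS-398 prefers cyclooxygenase-2 and SC-560 prefers cyclooxygenase-1.

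Promoters are shown for the 4 members called higher with indomethacin, because the results below return to them. Each runs 5′ to 3′ on the gene's strand, from 250 bases before the annotated start to 50 bases after it, as given by RefSeq for the assembly GRCr8. Capitals mark CCAAT or its reverse complement ATTGG, the box bound by NF-Y, a partner of SREBPs on many sterol genes. Insig1 lies at chr4:8057720-8058019 (minus strand), Fdps at chr2:176804767-176805066 (minus strand), Cyp51 at chr4:30991443-30991742 (plus strand) and Scd at chr1:253231682-253231981 (minus strand).
Insig1: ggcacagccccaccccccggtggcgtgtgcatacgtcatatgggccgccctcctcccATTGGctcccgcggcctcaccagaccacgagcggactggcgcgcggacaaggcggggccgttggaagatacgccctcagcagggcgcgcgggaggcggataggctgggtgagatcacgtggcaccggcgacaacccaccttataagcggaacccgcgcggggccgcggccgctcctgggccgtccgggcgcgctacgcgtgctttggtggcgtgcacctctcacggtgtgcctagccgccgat
Fdps: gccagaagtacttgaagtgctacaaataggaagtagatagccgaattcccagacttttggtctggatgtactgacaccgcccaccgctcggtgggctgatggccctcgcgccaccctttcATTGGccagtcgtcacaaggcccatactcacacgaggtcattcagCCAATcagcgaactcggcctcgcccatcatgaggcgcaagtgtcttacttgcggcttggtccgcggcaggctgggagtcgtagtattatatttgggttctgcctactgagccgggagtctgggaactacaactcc
Cyp51: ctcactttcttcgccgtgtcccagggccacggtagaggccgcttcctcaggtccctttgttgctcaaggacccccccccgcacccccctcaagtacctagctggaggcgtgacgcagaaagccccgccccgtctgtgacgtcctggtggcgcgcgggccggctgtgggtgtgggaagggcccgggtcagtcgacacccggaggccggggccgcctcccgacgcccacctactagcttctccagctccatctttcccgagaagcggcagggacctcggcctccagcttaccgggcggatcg
Scd: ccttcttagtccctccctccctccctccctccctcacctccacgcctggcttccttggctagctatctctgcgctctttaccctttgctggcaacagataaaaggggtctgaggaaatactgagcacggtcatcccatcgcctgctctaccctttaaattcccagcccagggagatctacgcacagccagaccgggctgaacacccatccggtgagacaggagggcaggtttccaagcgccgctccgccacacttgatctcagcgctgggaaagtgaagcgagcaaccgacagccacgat

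The Fdps window held 2 such boxes and the Insig1 window 1, whereas neither the Cyp51 nor the Scd window held one. The promoter table had an entry for 16 sterol and 7 fatty acid members. CCAAT on either strand was present for 13 of the 16 (81.2%) and 5 of the 7 (71.4%), beside 37.5% of all 33469 promoters in the table. TCACNCCAC, a core of the sterol regulatory element, was searched on both strands, and its letters do not contain CCAAT. It occurred for 0 of 16 and 0 of 7 members and in 1.12% of all promoters. These matches describe letters in the windows and are not measured binding sites. Other forms of the sterol regulatory element were not searched, so 0 matches of TCACNCCAC do not show that a window lacks one.

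The signals were linear intensities scaled by the authors to a common target, and median signals ran from 97.8 to 118.1 over the 14 arrays. The epithelial markers Krt8 (2670 to 6893) and Cdh1 (2637 to 8412) were present, while Krt18 and Epcam stayed below the filter, so 5 of 7 epithelial markers passed it. The filter can be met by arrays of 1 set. Vil1 met it through set b (67.45 to 196.4) and was at 6.229 to 33.27 without the suffix. Krt19 was at 344.7 to 766 in set b and at 44.83 to 135.8 without the suffix. Of the markers of fibroblasts and smooth muscle 7 of 8 passed, and some were bright, with Vim at 21670 to 24950 and Col1a1 at 10470 to 24190. None of the 5 adipocyte markers passed the filter, and the highest of them on any array was Plin1 at 82.3. The label sets stood apart: Cdx2, an intestinal transcription factor, was at 3072 to 5314 in set b and at 55.03 to 124.3 without the suffix. Krt8 was also higher in set b (4483 to 6893 against 2670 to 3537), whereas Cdh1 was lower there (2637 to 3671 against 7680 to 8412). The 3′ to 5′ signal ratio of the beta-actin controls, a sign of RNA integrity and amplification, was 1.218 to 1.338 in set b and 1.498 to 1.639 without the suffix. The same ratio of the Gapdh controls overlapped between the sets, at 0.955 to 1.002 in set b and 0.902 to 0.99 without the suffix. Because the label sets stood apart, called drug results are given within them as well as over all arrays.

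Indomethacin was accompanied by higher signals of 3 sterol genes (Fdps, Cyp51 and Insig1) and of the desaturase gene Scd, and no member of either list was called lower over all arrays. Scd showed the widest change, 1.71-fold on the log2(signal + 50) scale on which all fold changes are given. Those of the 3 sterol genes were 1.25-fold for Fdps and 1.27-fold for both Cyp51 and Insig1. Tests were made with limma over 17515 probe sets, and a call means a Benjamini-Hochberg adjusted p under 0.05 in a model with a mean per group and a term for the label set. By that rule 1.51% of all probe sets were called higher with indomethacin and 1.76% lower, against 3 of 20 sterol members higher and 0 lower, and 1 of 10 fatty acid members higher and 0 lower. The median log2 change was 0.17 over the sterol members, 0.14 over the fatty acid members and 0.00 over all probe sets. In RNA from whole cultures, fewer cells of a type and less RNA per cell cannot be told apart.

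Among the genes of the mevalonate steps, Fdps, the synthase of farnesyl pyrophosphate, was the member called. Its signal in set b was 5950 and 5923 with indomethacin, 4477 and 3951 with NS-398, 5078 and 4730 with SC-560 and 4864 and 4929 with DMSO. Both indomethacin arrays lay above every other array of set b, and the NS-398 arrays lay below the DMSO arrays. Without the suffix, Fdps was at 3710 and 3755 with NS-398, 4166 and 3910 with SC-560 and 3978 and 3656 with DMSO, so there the groups overlapped. The change with indomethacin was 0.32 ± 0.07 (log2, SE, limma adjusted p = 0.0197). The other genes of these steps were not called. Their log2 changes ran from -0.16 for Acat2, which joins 2 molecules of acetyl-CoA, to 0.24 for the phosphomevalonate kinase gene Pmvk, with Mvk at -0.04, Mvd at 0.00 and Idi1, the isopentenyl pyrophosphate isomerase, at 0.17.

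From squalene to cholesterol, 10 of 11 genes had a log2 change above 0 and 1 of them was called. That gene was Cyp51, which removes the 14-alpha methyl group of lanosterol. Its signal in set b was 8929 and 8664 with indomethacin, 7384 and 6844 with NS-398, 7626 and 7086 with SC-560 and 6859 and 7709 with DMSO. Without the suffix it was 6241 and 6647 with NS-398, 6232 and 5866 with SC-560 and 5341 and 5583 with DMSO. Both indomethacin arrays exceeded all other arrays, while NS-398, SC-560 and DMSO overlapped in set b. The change with indomethacin was 0.34 ± 0.08 (log2, SE, limma adjusted p = 0.0199). This probe set is of a type that can bind more than 1 transcript, and a second Cyp51 probe set gave 0.28 ± 0.14 (limma adjusted p = 0.313).

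The squalene synthase gene Fdft1 had the largest estimate of the sterol list with indomethacin, 0.38 ± 0.13 (log2, SE), and was not called (limma adjusted p = 0.148). A second Fdft1 probe set gave 0.12 ± 0.10 (limma adjusted p = 0.593). Dhcr7, the 7-dehydrocholesterol reductase gene, gave 0.37 ± 0.11 (limma adjusted p = 0.0822). The remaining genes of this stretch ran from -0.10 for the squalene epoxidase gene Sqle to 0.29 for the lathosterol oxidase gene Sc5d, and none was called. Of the regulators and transport genes, Insig1, whose product holds SREBPs back, was called, while Srebf2, which encodes SREBP-2, was at 0.07 and the sterol carrier gene Stard4 at 0.17.

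Insig1 signals in set b were 4722 and 4809 with indomethacin, 4864 and 4901 with NS-398, 4085 and 3860 with SC-560 and 3738 and 4010 with DMSO. Without the suffix they were 4439 and 4320 with NS-398, 3594 and 3850 with SC-560 and 3166 and 3278 with DMSO. Indomethacin and NS-398 arrays were alike in height in set b and all 4 lay above SC-560 and DMSO. The change with indomethacin was 0.34 ± 0.06 (log2, SE, limma adjusted p = 0.00666).

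On the fatty acid side, Scd, the stearoyl-CoA desaturase that makes oleate, was called with indomethacin. In set b its signal was 1305 and 1242 with indomethacin, 1148 and 952.9 with NS-398, 768.5 and 765.6 with SC-560 and 700.4 and 754.4 with DMSO. Both indomethacin arrays stood highest, the NS-398 arrays came next, and SC-560 and DMSO lay close together. Without the suffix it was 177.1 and 300.3 with NS-398, 160.5 and 131.7 with SC-560 and 143.7 and 139.2 with DMSO, far below set b in each group measured there. The change with indomethacin was 0.77 ± 0.14 (log2, SE, limma adjusted p = 0.00599). Of the genes from acetyl-CoA to palmitate, Acly was at 0.11, Acaca at 0.06 and Fasn, the fatty acid synthase, at 0.17. The elongase genes Elovl5 and Elovl6 were at 0.09 and 0.32, the desaturase genes Fads1 and Fads2 at -0.03 and 0.22, the acyl-CoA synthetase gene Acsl3 at 0.27 and Srebf1, which encodes SREBP-1, at -0.09. None of these 9 was called.

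**Figure D1:**
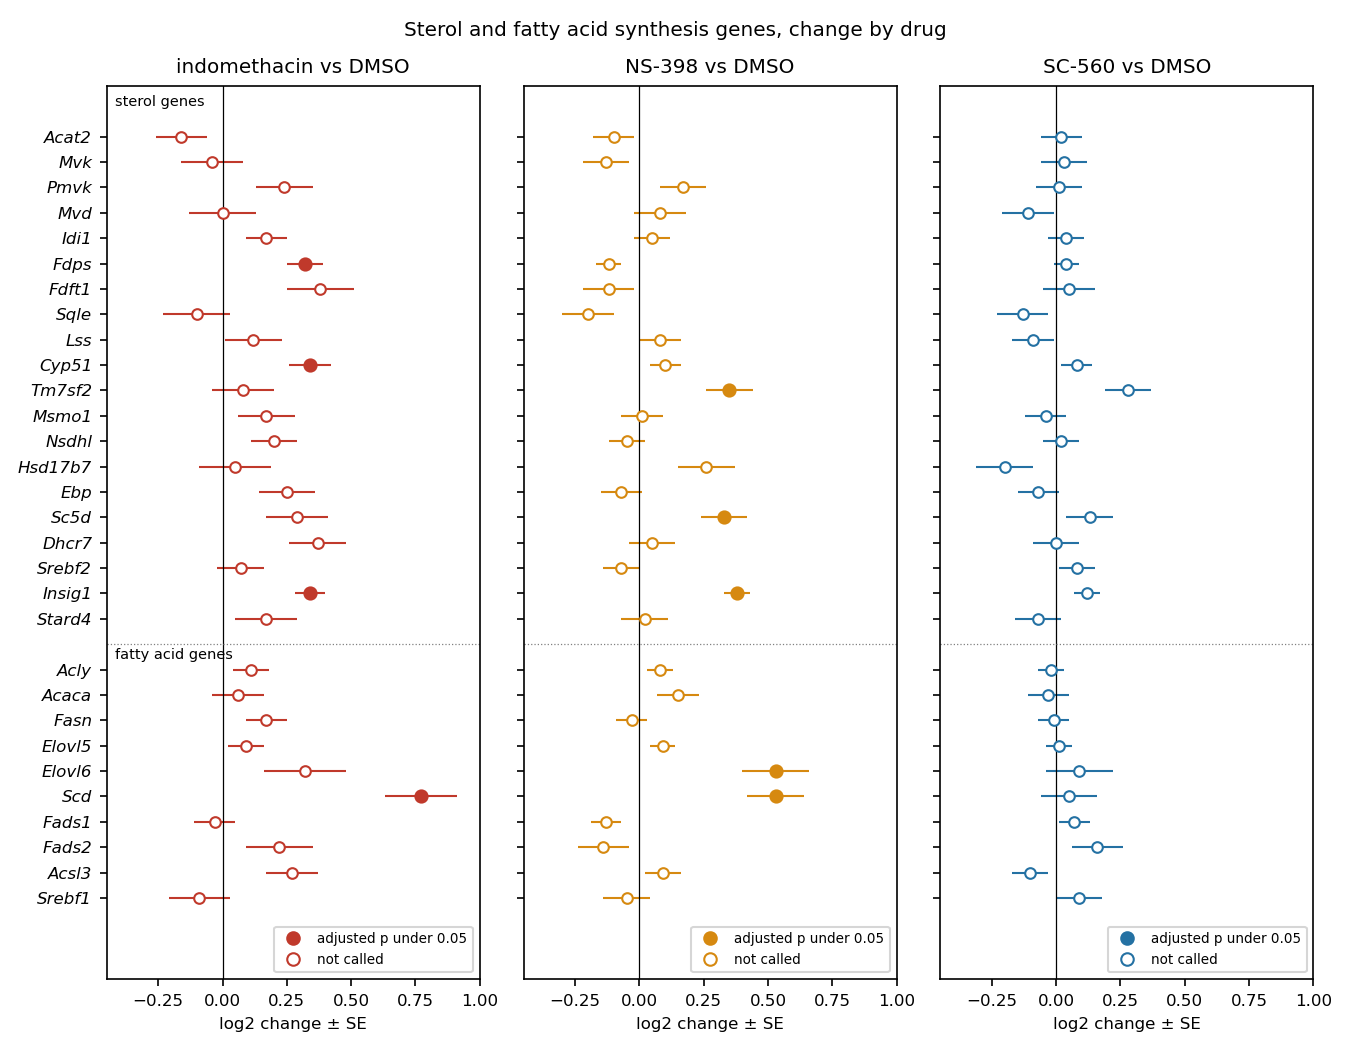
Log2 change (horizontal axis) of each member with indomethacin, NS-398 and SC-560 against DMSO; points are limma estimates, bars are SE, and filled points have an adjusted p under 0.05. Filled points lie at Fdps, Cyp51, Insig1 and Scd for indomethacin and at Tm7sf2, Sc5d, Insig1, Elovl6 and Scd for NS-398, with none for SC-560.

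Within set b, 13 of 20 sterol members and 6 of 10 fatty acid members had both indomethacin arrays above both DMSO arrays, a pattern seen for 26.5% of all probe sets. Both indomethacin arrays lay below both DMSO arrays for Acat2, Mvk and Sqle and for no fatty acid member, beside 26.7% of all probe sets. Set mean ratios of indomethacin to DMSO ran from 0.819 for Acat2 to 1.26 for Dhcr7 on the sterol side and from 0.95 for Srebf1 to 1.75 for Scd on the fatty acid side. When set b was fitted alone, Fdps (0.28 ± 0.07), Cyp51 (0.27 ± 0.06), Insig1 (0.30 ± 0.06) and Scd (0.77 ± 0.10) were called higher and Acat2 (-0.28 ± 0.08, limma adjusted p = 0.0497) lower. In that fit 3.62% of all probe sets were called higher and 3.08% lower. The beta-actin 3′ to 5′ ratios in set b were 1.25 and 1.232 with indomethacin and 1.338 and 1.267 with DMSO; their part in these differences was not tested.

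With 2 indomethacin arrays, each call depended on both. Without indomethacin 1b the limma adjusted p was 0.146 for Fdps, 0.171 for Cyp51, 0.0628 for Insig1 and 0.0803 for Scd. Without indomethacin 2b it was 0.142, 0.123, 0.0951 and 0.0696 for the same genes. Cyp51 also lost its call without DMSO 1b (0.0715), and without the intensity trend neither Fdps (0.0777) nor Cyp51 (0.0885) was called. Log2 changes stayed between 0.29 and 0.41 for the 3 sterol genes and between 0.73 and 0.81 for Scd over all 14 fits with 1 array left out.

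NS-398 was accompanied by higher signals of 3 sterol genes, Tm7sf2, Sc5d and Insig1, and of 2 fatty acid genes, Elovl6 and Scd, and no member was called lower over all arrays. Scd and Elovl6 showed the widest changes, 1.44-fold and 1.45-fold. The counts of 3 of 20 sterol members and 2 of 10 fatty acid members stood against 7.12% of all probe sets called higher and 6.39% called lower. The median log2 change was 0.03 over the sterol members, 0.09 over the fatty acid members and -0.01 over all probe sets. No gene of the mevalonate steps was called, with log2 changes from -0.13 for Mvk to 0.17 for Pmvk. The uncalled genes from squalene to cholesterol ran from -0.20 for Sqle to 0.26 for Hsd17b7, and the 8 uncalled fatty acid genes from -0.14 for Fads2 to 0.15 for Acaca. Srebf2 and Srebf1, which encode the SREBPs, were at -0.07 and -0.05.

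Tm7sf2 encodes the sterol reductase that acts next after Cyp51 on the way to cholesterol. Its signal in set b was 176 and 187.5 with indomethacin, 220 and 230.8 with NS-398, 227.5 and 229.7 with SC-560 and 170.2 and 155.2 with DMSO. Without the suffix it was 213.3 and 219.2 with NS-398, 186.9 and 190.7 with SC-560 and 156.5 and 165.5 with DMSO. Every NS-398 and SC-560 array lay above every DMSO array, and the indomethacin arrays lay above the DMSO arrays of set b by less. The change with NS-398 was 0.35 ± 0.09 (log2, SE, limma adjusted p = 0.0185), and the call was lost without DMSO 2b (limma adjusted p = 0.06). Within either set alone the estimate was as large, 0.37 in set b and 0.34 without the suffix, with adjusted p of 0.0958 and 0.195.

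Sc5d, the lathosterol oxidase gene, was the other sterol enzyme called. In set b its signal was 779.7 and 795.5 with indomethacin, 745.5 and 743.7 with NS-398, 770.2 and 649 with SC-560 and 644.9 and 712.1 with DMSO. Without the suffix it was 932.7 and 890.7 with NS-398, 662 and 781.9 with SC-560 and 645.4 and 589.2 with DMSO. NS-398 arrays lay above DMSO arrays in both sets, with a wide gap without the suffix and a narrow one in set b, where the indomethacin arrays were higher still. The change with NS-398 was 0.33 ± 0.09 (log2, SE, limma adjusted p = 0.0222), with 0.13 in set b and 0.53 without the suffix. The call was lost without DMSO 1 (limma adjusted p = 0.0546), DMSO 2 (0.0818), NS-398 1 (0.0738) or NS-398 2 (0.0611). Of the other 2 Sc5d probe sets, 1 was called with NS-398 (0.33, limma adjusted p = 0.0319) and 1 was not (0.20, limma adjusted p = 0.226).

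Insig1 was called with NS-398 in every fit with 1 array left out. Its change was 0.38 ± 0.05 (log2, SE, limma adjusted p = 9.3e-05), 0.33 in set b and 0.44 without the suffix, and it was called within each set alone. No other sterol member was called within both sets.

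Elovl6, which lengthens palmitate to stearate, was at 591.3 and 648.8 with indomethacin, 571.8 and 682.7 with NS-398, 546 and 549 with SC-560 and 539.4 and 531.6 with DMSO in set b. Without the suffix it was at 542.1 and 642.6 with NS-398, 305.1 and 379.6 with SC-560 and 267.5 and 341.4 with DMSO. The NS-398 arrays lay above the DMSO arrays in both sets and reached the height of set b in the set without the suffix, where SC-560 and DMSO were low. The change was 0.53 ± 0.13 (log2, SE, limma adjusted p = 0.00929), and in set b alone it was 0.21 and not called (limma adjusted p = 0.244), against 0.86 without the suffix. A second Elovl6 probe set gave 0.18 (limma adjusted p = 0.406). Scd changed by 0.53 ± 0.11 with NS-398 (log2, SE, limma adjusted p = 0.00438), 0.50 in set b and 0.56 without the suffix, where it was not called (limma adjusted p = 0.114). Both Elovl6 and Scd kept their call with each array left out.

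**Figure D2:**
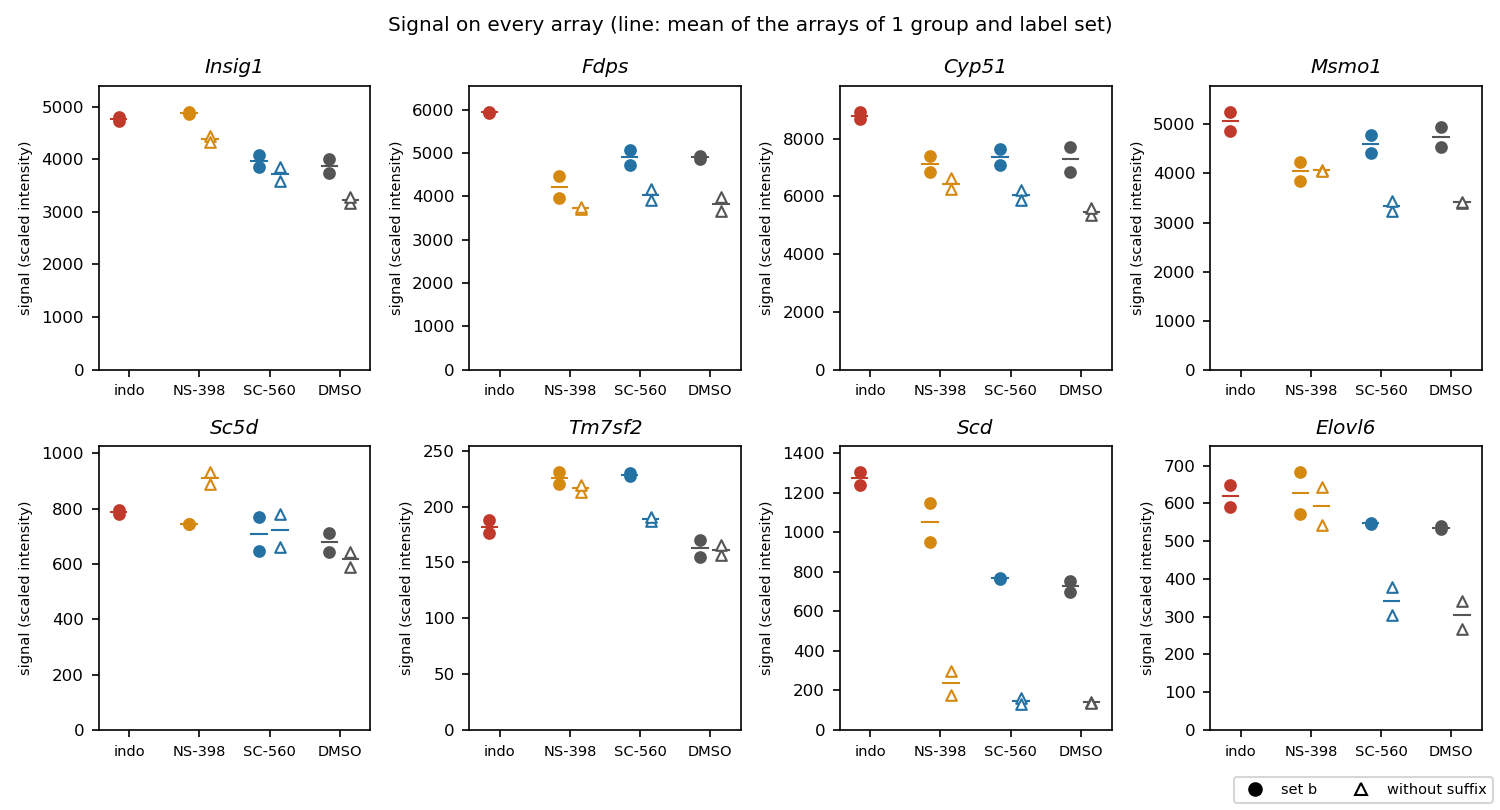
Signal (vertical axis, scaled intensity from 0) of 8 members on every array, by group from indomethacin to DMSO; filled circles are arrays of set b, open triangles arrays without the suffix, and lines their means. Insig1 and Scd are high with indomethacin and NS-398 in set b, and Scd lies at 131.7 to 300.3 on every array without the suffix.

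Every NS-398 array lay above the DMSO arrays of its own set for Tm7sf2, Sc5d, Insig1, Elovl6 and Scd, a pattern held by 10.8% of all probe sets, and below them for Fads1, as for 11.1%. Fits within each set called other sterol genes than the fit over all arrays. Fitted alone, set b had 1 sterol member called higher, Insig1, and 3 called lower, beside 7.62% and 6.62% of all probe sets. The 3 were Sqle (-0.41 ± 0.08, limma adjusted p = 0.00452), Acat2 (-0.33 ± 0.08, limma adjusted p = 0.0151) and Fdps (-0.22 ± 0.07, limma adjusted p = 0.0456). In set b Sqle was at 2024 and 2003 with DMSO and at 1545 and 1452 with NS-398. It was at 1789 and 1586 with indomethacin and 1565 and 1520 with SC-560, so every drug array lay below DMSO. Its set b change was -0.37 ± 0.08 with SC-560 (limma adjusted p = 0.127) and -0.25 ± 0.08 with indomethacin (limma adjusted p = 0.0779), neither called. Fitted alone, the set without the suffix had 4 sterol members called higher, Sc5d (0.53 ± 0.11), Insig1 (0.44 ± 0.07), Msmo1 (0.25 ± 0.06) and Cyp51 (0.24 ± 0.06), and 0 called lower, beside 4.92% and 4.56% of all probe sets. On the fatty acid side, Scd and Elovl5 (0.22 ± 0.05, limma adjusted p = 0.0149) were called higher in set b and Elovl6 was called higher without the suffix. Each of these NS-398 comparisons within a set rested on 2 arrays of NS-398 and 2 of DMSO.

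The difference between the sets was tested as an interaction in the 12 arrays without indomethacin. Msmo1, the methylsterol monooxygenase gene, and Acat2 passed, both with a lower effect of NS-398 in set b, and no member passed the other way. Over all probe sets 2.92% passed as higher in set b and 2.55% as lower. Of the 20 sterol members 14 had an estimate below 0, with a median of -0.14, beside a median of 0.00 over all probe sets. The same interaction for SC-560, against the same DMSO arrays, was below 0 for 17 of the 20, with a median of -0.11.

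Msmo1 signals in set b were 5257 and 4869 with indomethacin, 4242 and 3842 with NS-398, 4786 and 4412 with SC-560 and 4545 and 4957 with DMSO. Without the suffix they were 4075 and 4048 with NS-398, 3234 and 3447 with SC-560 and 3394 and 3428 with DMSO. The NS-398 arrays lay below the DMSO arrays in set b and above them without the suffix. The interaction was -0.48 ± 0.10 (log2, SE, limma adjusted p = 0.00985) and was called with each array left out, but not without the intensity trend (limma adjusted p = 0.0836).

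Acat2 signals in set b were 1863 and 1775 with indomethacin, 1868 and 1659 with NS-398, 2026 and 2085 with SC-560 and 2299 and 2144 with DMSO. Without the suffix they were 1916 and 2006 with NS-398, 2057 and 1911 with SC-560 and 1758 and 1806 with DMSO. In set b all indomethacin, NS-398 and SC-560 arrays lay below the DMSO arrays. Without the suffix the NS-398 and SC-560 arrays lay above the DMSO arrays of that set. The interaction with SC-560 was -0.26 ± 0.11 and was not called (limma adjusted p = 0.794). That with NS-398 was -0.46 ± 0.11 (log2, SE, limma adjusted p = 0.022). It lost its call without DMSO 1 (0.0728), DMSO 2 (0.0548), DMSO 1b (0.0965), NS-398 2 (0.0957) or NS-398 2b (0.084). Sqle (-0.43, limma adjusted p = 0.141), Cyp51 (-0.27, limma adjusted p = 0.12) and Sc5d (-0.40, limma adjusted p = 0.147) were not called, and neither was Elovl6 (-0.66, limma adjusted p = 0.0595) or any other fatty acid member. For Sqle the interaction with SC-560 was -0.48 and was not called either (limma adjusted p = 0.74).

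**Figure D3:**
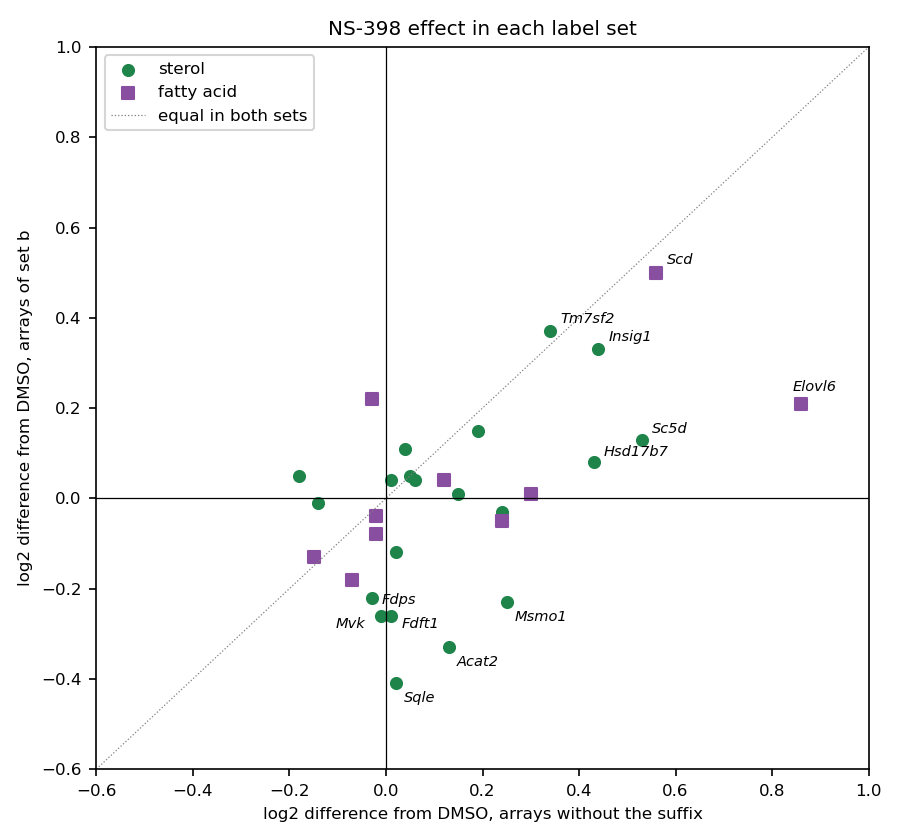
Log2 difference of NS-398 from DMSO for each member without the suffix (horizontal axis) and in set b (vertical axis), from means of 2 arrays each; circles are sterol genes and squares fatty acid genes, and the dotted line marks equal values. Insig1, Tm7sf2 and Scd lie near the dotted line, Msmo1 (-0.23 in set b, 0.25 without the suffix) and Acat2 (-0.33 in set b, 0.13 without the suffix) lie on opposite sides of 0, and Elovl6 lies far to the right.

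No member was called with SC-560, and 0% of all probe sets were called in either direction by limma at an adjusted p under 0.05, while 1263 had an unadjusted p under 0.05. Of the members, 2 sterol genes and 0 fatty acid genes had an unadjusted p under 0.05. The median log2 change was 0.02 over the sterol members and 0.03 over the fatty acid members. The 95% intervals ran from -0.43 to 0.48 over the sterol members and from -0.26 to 0.36 over the fatty acid members. Of these intervals, which are not adjusted for the number of probe sets, those of Tm7sf2 (0.09 to 0.48) and Insig1 (0.02 to 0.23) lay above 0 and the others held 0. The largest estimates were 0.28 ± 0.09 for Tm7sf2 (limma adjusted p = 0.49) and -0.20 ± 0.11 for Hsd17b7, which encodes a 3-ketosteroid reductase (limma adjusted p = 0.751). Every SC-560 array lay above the DMSO arrays of its set for Tm7sf2, as for 5.14% of all probe sets, and below them for Hsd17b7 and Acsl3, as for 3.92%. Fitted alone, set b called 0.0171% of all probe sets in either direction and the set without the suffix 0.0114%, and neither called a member. The interaction of SC-560 with the label set was called for 0.0171% of all probe sets and for no member. SC-560 was used at 1 µM and the other drugs at 100 µM, so their responses are given side by side and were not compared.

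Indomethacin and NS-398, both at 100 µM, were compared directly. Fdps was higher with indomethacin than with NS-398, by 0.44 ± 0.07 (log2, SE, limma adjusted p = 0.00151), and kept its call with each array left out. Fdft1 was also called, by 0.50 ± 0.13 (log2, SE, limma adjusted p = 0.037). Fdft1 signals in set b were 1299 and 1369 with indomethacin, 1115 and 709.4 with NS-398, 1027 and 1053 with SC-560 and 1031 and 1115 with DMSO. Both indomethacin arrays were above all others, while 1 NS-398 array equalled the higher DMSO array and the other was the lowest of set b. Without the suffix they were 979 and 835.2 with NS-398, 959.1 and 1030 with SC-560 and 893.5 and 901.4 with DMSO. The 2 called sterol members and 0 called fatty acid members stood beside 2.08% of all probe sets called higher with indomethacin and 3.36% called lower.

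The Fdft1 call was lost without indomethacin 1b (limma adjusted p = 0.152), indomethacin 2b (0.23), NS-398 2 (0.0539), NS-398 2b (0.0861), SC-560 1b (0.0504) or SC-560 2b (0.0508), and with each group's arrays of 1 set as a random block (0.0865). With set b fitted alone, Fdps was at 0.49 and Fdft1 at 0.56, both called, and Cyp51 (0.31, limma adjusted p = 0.0138) and Msmo1 (0.32, limma adjusted p = 0.0172) were called higher with indomethacin as well, in a fit that called 4.01% of all probe sets higher and 5.29% lower. Over all arrays 14 of 20 sterol members were higher with indomethacin than with NS-398, with a median of 0.11. For Insig1 the difference was -0.04 with a 95% interval from -0.18 to 0.09. For Scd it was 0.24 with an interval from -0.06 to 0.54, and for Elovl6 -0.21 with an interval from -0.55 to 0.13, so differences of those sizes either way cannot be told from 0.

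Across the label sets, 12 of 20 sterol members and 8 of 10 fatty acid members were called higher in set b, and 1 fatty acid member, Elovl5, was called lower (-0.11 ± 0.04, limma adjusted p = 0.0426). Of all probe sets 31% were called higher in set b and 28% lower, and the median difference was 0.19 over the sterol members, 0.40 over the fatty acid members and 0.03 over all. Scd differed most, by 2.01 ± 0.09 (log2, SE, limma adjusted p = 3.71e-12). Next came Mvk, the mevalonate kinase gene, by 1.36 ± 0.07 (log2, SE, limma adjusted p = 3.95e-11). Mvk signals in set b were 516 and 529.7 with indomethacin, 443.7 and 459.9 with NS-398, 590.4 and 578.9 with SC-560 and 554 and 545.2 with DMSO. Without the suffix they were 167.8 and 182.4 with NS-398, 182.6 and 161.2 with SC-560 and 168.2 and 183.7 with DMSO. The sets did not overlap on any array, and a second Mvk probe set differed by 1.20.

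Of the mevalonate steps 5 of 6 genes were called higher in set b, among them Pmvk (0.50) and Idi1 (0.45). From squalene to cholesterol it was 5 of 11, between 0.18 for Nsdhl and 0.31 for Msmo1, and the regulators Srebf2 (0.21) and Insig1 (0.17) were called as well. All 3 genes from acetyl-CoA to palmitate were called higher, Acaca, the acetyl-CoA carboxylase gene, by 0.60, Fasn by 0.26 and Acly by 0.20. Acsl3 (0.71), Elovl6 (0.47), Srebf1 (0.45) and Fads2 (0.34) were called higher too, and Fads1 (0.01) was not. The call of Elovl5 was lost without any 1 of the 4 DMSO, 4 SC-560 or 2 indomethacin arrays (limma adjusted p from 0.0529 to 0.11), with the random block (0.0602), without the intensity trend (0.106) and with no filter on low signal (0.0754). The other 20 members kept their calls in all of these fits. Sc5d was at -0.06 on its brightest probe set and was not called. Another Sc5d probe set was called lower in set b (-0.36, limma adjusted p = 0.000767), and the remaining one was not called (-0.11, limma adjusted p = 0.26). These differences move with those of Cdx2 and of the beta-actin ratio given above, and their part was not tested.

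**Figure D4:**
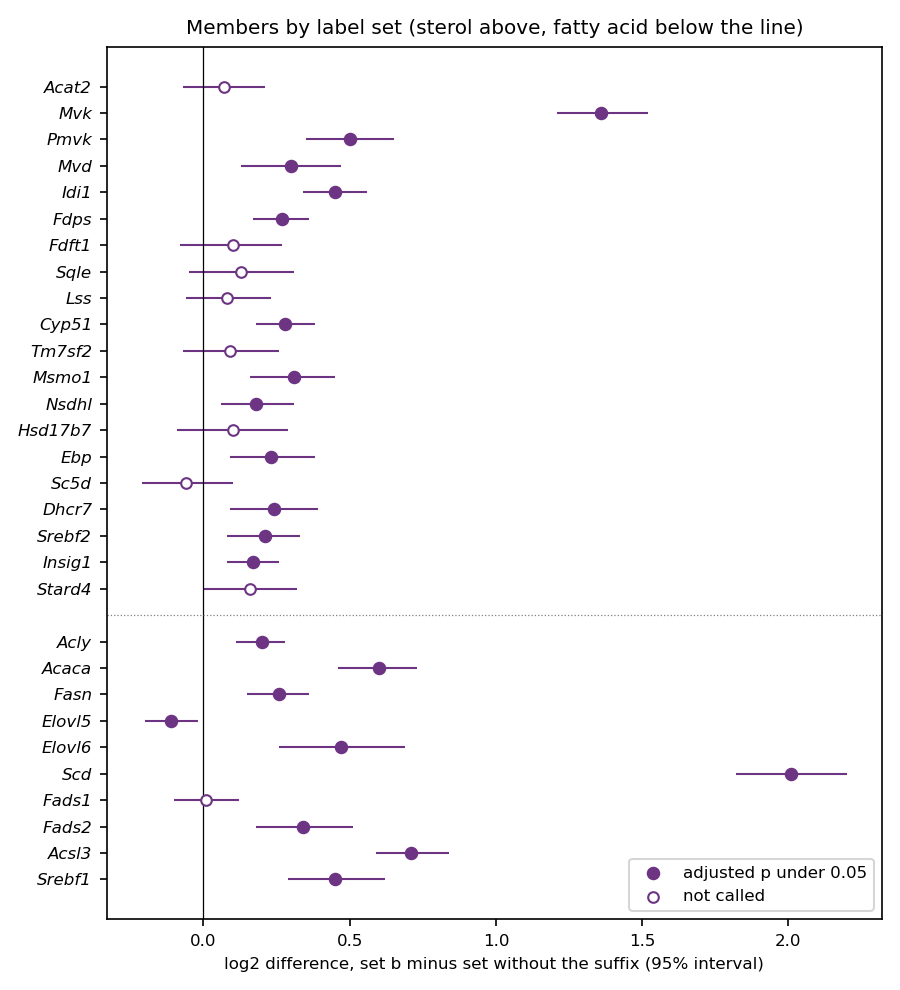
Log2 difference of set b minus the set without the suffix (horizontal axis) for each member, with 95% intervals from limma; filled points have an adjusted p under 0.05. Scd (2.01) and Mvk (1.36) stand far to the right, and Elovl5 (-0.11), whose call did not hold in 10 of the 14 fits with 1 array left out, is the filled point left of 0.

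Further genes of these pathways were described from lists of the same kind. Of 22 genes of sterol synthesis, SREBP control, uptake and efflux, 15 had a probe set and 13 were tested. With indomethacin 0 were called higher and 1 lower, beside the 1.51% and 1.76% of all probe sets given above. With NS-398 2 were called higher and 2 lower, beside 7.12% and 6.39%, and with SC-560 none was called.

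The gene called with indomethacin was Soat1, a sterol O-acyltransferase gene, at -0.35 ± 0.09 (log2, SE, limma adjusted p = 0.0463) over all arrays and -0.45 ± 0.07 in set b alone. Its call over all arrays was lost with each group's arrays of 1 set as a random block (0.094). In set b Soat1 was at 1677 and 1506 with indomethacin and 1741 and 1797 with SC-560. There it was at 1901 and 1881 with NS-398 and 2260 and 2123 with DMSO, so every drug array lay below DMSO. Without the suffix it was at 2372 and 2325 with NS-398, 2269 and 1996 with SC-560 and 2119 and 2189 with DMSO. It was not called with SC-560 (-0.16 ± 0.07, limma adjusted p = 0.669) or NS-398 (-0.04 ± 0.07, limma adjusted p = 0.756). With NS-398, Ch25h, the cholesterol 25-hydroxylase gene, and Npc2, a lysosomal cholesterol carrier gene, were called higher. The SREBP protease gene Mbtps1 and the efflux gene Abcg1 were called lower.

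Ch25h was at 333.9 and 335.8 on the NS-398 arrays of set b, against 69.49 and 76.19 on the DMSO arrays of that set. The indomethacin (132.8 and 144.6) and SC-560 (92.03 and 137.9) arrays of set b also lay above DMSO. Neither drug was called for it over all arrays (0.30 ± 0.29 with indomethacin, 0.09 ± 0.22 with SC-560). In the set without the suffix Ch25h was at 58.59 and 53.92 with NS-398 and at 32.53 and 33.54 with DMSO, all below the filter of 100. Over all arrays the change of Ch25h with NS-398 was 1.00 ± 0.22 (log2, SE, limma adjusted p = 0.00657). Within sets this change was called in set b (1.65 ± 0.17) and not without the suffix (0.36 ± 0.28, limma adjusted p = 0.482). The interaction of NS-398 with the label set was 1.29 ± 0.34 (log2, SE, limma adjusted p = 0.0394).

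Npc2 was at 7809 and 8104 with NS-398 and 5367 and 5368 with DMSO in set b. On the other arrays, without the suffix, Npc2 was at 7380 and 7513 with NS-398 and 7442 and 6804 with DMSO. The groups were far apart in set b and overlapped without the suffix. Its change was 0.31 ± 0.09 over all arrays (limma adjusted p = 0.0308), 0.56 ± 0.06 in set b and 0.07 ± 0.07 without the suffix (limma adjusted p = 0.617), and the interaction was called (0.50 ± 0.10, limma adjusted p = 0.00813).

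Mbtps1 changed by -0.29 ± 0.06 with NS-398 over all arrays (log2, SE, limma adjusted p = 0.00556). It was not called in set b alone (-0.23 ± 0.08, limma adjusted p = 0.0804) and was called without the suffix (-0.35 ± 0.07). Abcg1 changed by -0.50 ± 0.15 over all arrays (limma adjusted p = 0.0311) and by -0.40 ± 0.09 in set b, where it was at 705.1 and 743.8 with NS-398 and 951.9 and 990.8 with DMSO. All 6 arrays without the suffix lay below the filter for Abcg1 (5.578 to 82.99). The Abcg1 call was lost at a pseudocount of 16 (-0.73, limma adjusted p = 0.0605), without NS-398 array 1 (-0.33, limma adjusted p = 0.0948) and with the random block (0.072).

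Of 25 further genes of fatty acid synthesis, elongation, activation and glycerolipid assembly, 22 had a probe set and 16 were tested. With indomethacin 2 were called higher and 0 lower, with NS-398 3 higher and 1 lower, and with SC-560 none, beside the shares of all probe sets given above. Acss2, which makes acetyl-CoA from acetate, was called higher with both drugs, by 0.41 ± 0.11 with indomethacin (log2, SE, limma adjusted p = 0.0429) and by 0.35 ± 0.08 with NS-398 (limma adjusted p = 0.00853).

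In set b Acss2 was at 1347 and 1296 with indomethacin, 1367 and 1385 with NS-398, 946.4 and 893.5 with SC-560 and 912.4 and 956.6 with DMSO. The indomethacin and NS-398 arrays stood clear of the rest of set b. Arrays without the suffix gave Acss2 signals of 418.4 and 415.9 with NS-398, 317.3 and 372.8 with SC-560 and 350.7 and 377.8 with DMSO, so that the groups lay closer together. Fitted alone, set b gave 0.48 ± 0.08 with indomethacin and 0.53 ± 0.08 with NS-398, both called, and the set without the suffix gave 0.17 ± 0.13 with NS-398, which was not called (limma adjusted p = 0.439). The indomethacin call over all arrays was lost with the random block (0.0907).

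Fads3, a desaturase-like gene, was called higher with indomethacin (0.32 ± 0.08, limma adjusted p = 0.0469), but not in set b alone (0.28 ± 0.08, limma adjusted p = 0.0668) or with the random block (0.104). With NS-398 the acyl-CoA synthetase genes Acsl1 (0.40 ± 0.12, limma adjusted p = 0.0295) and Acsl4 (0.27 ± 0.07, limma adjusted p = 0.0166) were called higher and the elongase gene Elovl1 (-0.21 ± 0.06, limma adjusted p = 0.023) lower. None of these 3 was called in both sets fitted alone. Acsl1 was at 0.17 in set b (limma adjusted p = 0.287) and 0.64 without the suffix (limma adjusted p = 0.0246), and the random block ended its call (0.0515). Acsl4 was at 0.32 in set b (limma adjusted p = 0.0256) and 0.22 without the suffix (limma adjusted p = 0.0835). Elovl1 was at -0.15 in set b (limma adjusted p = 0.163) and -0.27 without the suffix (limma adjusted p = 0.0455).

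Ch25h, Mbtps1 and, for NS-398, Acss2 kept their calls with each array left out. Soat1 and, for indomethacin, Acss2 were called in 7 of the 14 such fits and Fads3 in 2. Each was lost without either indomethacin array, at an adjusted p of 0.11 and 0.367 for Soat1, 0.253 and 0.197 for Acss2 and 0.326 and 0.149 for Fads3, without 1b and 2b in that order. Abcg1, Acsl1 and Npc2 were called in 9 of 14 fits, with adjusted p up to 0.112, 0.101 and 0.104 in the others. Elovl1 was called in 11, lost without DMSO 2 (0.0572), DMSO 2b (0.0567) or NS-398 2 (0.076), and Acsl4 in 13, lost without NS-398 1b (0.0558).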

How the data were processed

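RNA of IEC-6 cells was labelled after 2 cycles of in vitro transcription and hybridised to 14 one-colour arrays. The authors deposited linear signal intensities for 31099 probe sets, scaled per the labels to a target of 500; the sources used here do not name the summarising software. The number of arrays limits the precision. Of the probe sets, 20832 had 1 symbol and 436 several. Names came from the platform annotation, and 20764 gene identifiers were found in a RefSeq table (GRCr8). The 57 control probe sets were left out, and tests ran on the 17515 others with a signal of 100 or more on 2 or more arrays.

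On log2(signal + 50), models were fitted in limma 3.58.1 (R 4.3.3) with a mean per group, a label set term and an intensity trend, after tests on simulated data. Errors after ± are standard errors. Alternatives were other pseudocounts, filters, normalization, models, single label sets and each array left out.

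The members and gene lists were chosen with earlier results of these data known, so no list was tested. Signals on every array are given for members called in a drug comparison or in the NS-398 interaction, and other members by range. Of the further pathway genes, those with the smallest adjusted p were named, up to 4 per drug and direction. The array values of Fdft1, Mvk, Sqle, Soat1, Acss2, Ch25h, Npc2 and Abcg1 were added after they were seen. Promoters come from RefSeq; 7 members had no entry in the table used.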

Additional observations from a re-analysis of the deposited data

Results flagged for a closer look

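The effect of NS-398 differed between the label sets for Msmo1, by -0.48 on the log2 scale as set b minus the set without the suffix, and for Acat2, by -0.46, both by the interaction test in limma over all probe sets. In each gene the NS-398 arrays lay below DMSO in set b and above it without the suffix. For Acat2 the SC-560 arrays did so too.

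In 3 of 90 groups of 4 arrays, 1 array stood far from the others by Dixon's criterion. Chance meets it in about 1 in 20 groups of like arrays. Each group here held 2 arrays of each label set, so that rate does not apply to it. The 3 were Srebf1 at 635.4 on NS-398 array 2, the lowest of its group, Fads1 at 1477 on SC-560 array 2b, the highest of its group, and Ebp at 604.8 on DMSO array 2, the lowest of its group. None of these 3 genes was called in a drug comparison with DMSO.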

How the results depend on the processing

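Counts below are members called, with the count reported above in brackets. Without a label set term 0 members were called for indomethacin (3 sterol, 1 fatty acid), NS-398 (3 and 2) and indomethacin against NS-398 (2 sterol). Without the intensity trend, 1 sterol member was called for indomethacin, 1 for indomethacin against NS-398 and 0 for the NS-398 interaction (2). For indomethacin against NS-398, 1 was called with no filter on low signal and with each group's arrays of 1 set as a random block, and 4 in set b alone or with 1 mean per group and set. The replicate block, the shared label as a block, also gave 1. After removal of group and set means, arrays of the same label correlated between -0.08 and 0.06, so no pairing by label was seen in these correlations. In each of these fits with 1 call for indomethacin against NS-398, the gene that lost its call was Fdft1 (limma adjusted p = 0.0607 with the replicate block). Among the further pathway genes the replicate block ended the calls of Soat1 (0.0793), Acss2 (0.0708) and Fads3 (0.082) with indomethacin and Npc2 (0.0541) with NS-398. For NS-398, 1 fatty acid member was called without the suffix (2). A mean signal of at least 200 gave 1 fatty acid member in the NS-398 interaction (0). With 1 array left out, indomethacin gave 0 to 4 sterol and 0 to 1 fatty acid members, indomethacin against NS-398 1 to 3 sterol members and the NS-398 interaction 1 to 3 sterol and 0 to 1 fatty acid members. The cause of these shifts was not tested. No called value changed sign. Counts joined both directions, so 1 sterol member higher and 3 lower with NS-398 in set b alone passed as near the 3 higher reported. Of the other counts tried, which include those of 0 for SC-560, 297 lay within 1.5 times the reported count. Pseudocounts of 16 and 200 and quantile normalization kept every count of members within that range. The 2 indomethacin arrays, both of 1 label set, and the pooled cultures set the limits of these data.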
